A study of Mus musculus with 12 samples.

Results

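The transcript levels described here were those of the hippocampus of 3 young adult mice in standard housing (SH), 3 of the 12 libraries of the study. The animals were wild-type males of the strain labelled C57/BL6 (C57Bl/6J in the study's methods), aged 5 to 6 months, and each gave 1 hippocampus and 1 library. They had been trained in a water maze, kept undisturbed in groups in plain cages for several weeks, tested again and killed some weeks later, so "baseline" here means without enrichment, not without training. The libraries are called young SH libraries 1, 2 and 3, and nothing in this account compares them with another group. All 23361 gene names of the table were kept, each represented by the 1 of its 29973 transcript rows with the highest summed signal.

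The hippocampus is the part of the temporal lobe that forms spatial and episodic memory. Its excitatory neurons, the granule cells of the dentate gyrus and the pyramidal cells of fields CA3, CA2 and CA1, are joined in a chain, and inhibitory interneurons, astrocytes, myelinating oligodendrocytes, microglia and blood vessels surround them. Calcium that enters through glutamate receptors is bound by calmodulin, which switches on the kinase CaMKII and the phosphatase calcineurin, and the balance of such kinases with phosphatases is known to set synaptic strength. The tissue was taken whole, so fewer cells of a type and less RNA per cell cannot be told apart in any value below.

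Levels were measured by SAGE-Seq, serial analysis of gene expression by deep sequencing. Polyadenylated RNA is made into cDNA, the enzyme NlaIII cuts it at every CATG, and 1 short tag is read next to the CATG site that lies closest to the poly(A) tail. A transcript therefore gives 1 tag whatever its length, and levels can be set side by side between genes without a length correction, provided that the transcript has a usable CATG. Levels are given in RPM, reads per 1000000, the value of a gene over its column total times that number. Column totals corresponded to 12772594, 13383657 and 10891143 reads in libraries 1, 2 and 3, in which a read shared by several transcript rows of a gene counted in each of them. The rows kept made up 70.8% to 71.4% of the totals. A count of 3 reads was worth 0.224 to 0.275 RPM.

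To show what was counted, the expected tags of genes on which the results below turn are printed here with the CATG in capitals. They were read from GENCODE transcripts on the mouse assembly NCBIM37 (mm9), each being the CATG nearest to the 3′ end and the bases after it, in the direction of transcription and 27 bases in all. Which CATG site each read came from was not analysed here. The first set holds abundant transcripts of the hippocampus.
Fth1 (chr19:10059484-10059510, plus strand, 3′ UTR): CATGtcaggctgccttcatcttttcta
Hspa8 (chr9:40613251-40613277, plus strand, 3′ UTR): CATGgaataataaaactatttaaattg
Eef1a1 (chr9:78326620-78326646, minus strand, coding exon): CATGaggcagacagttgctgtgggtgt
Snap25 (chr2:136608062-136608088, plus strand, 3′ UTR): CATGtatattaaatccctcctgtctcc
Nrgn (chr9:37352104-37352130, minus strand, 3′ UTR): CATGttaccatactgggttggaatgtg

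The second set holds the calmodulin genes Calm2 and Calm3, whose tags differ although their proteins are known to be identical, followed by Gapdh and the Gapdh-like gene Gm5069, whose tags are the same in all 27 bases and cannot be told apart.
Calm2 (chr17:87832800-87832826, minus strand, 3′ UTR): CATGgcacaacttgcctcaaatccatt
Calm3 (chr7:17501108-17501134, minus strand, 3′ UTR): CATGatccgcacccttgcttctgactc
Gapdh (chr6:125112042-125112068, minus strand, coding exon): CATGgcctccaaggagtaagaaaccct
Gm5069 (chr1:182257294-182257320, minus strand, coding exon): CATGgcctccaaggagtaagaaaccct

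The last set belongs to genes that stood far from the other libraries in 1 library, and to Pvalb, which had no read.
Naca (chr10:127485342-127485368, plus strand, coding exon): CATGtcgcaagcaaacgtatcaagagc
Ndufs5 (chr4:123390015-123390041, minus strand, 3′ UTR): CATGctctgttttcccctggagagaat
Tom1l2 (chr11:60040226-60040252, minus strand, 3′ UTR): CATGtgaagtactccacaataaatagt
B2m (chr2:121978515-121978541, plus strand, 3′ UTR): CATGttttcaaaaaattggaaatatcc
Pvalb (chr15:78021731-78021757, minus strand, 3′ UTR): CATGtgggccacctcgttcaatctctg

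Before any level is read, the libraries differed from each other in ways that touch several results. Library 2 was lowest of the 3 for markers of oligodendrocytes, dentate granule cells and the dorsal hippocampus, and highest for markers of the ventral hippocampus. Library 3 was highest for haemoglobin. Male sex was met in every library: Ddx3y, a gene of the Y chromosome, was at 81.1, 107 and 75.7 RPM, while Xist, the RNA that silences an X chromosome in females, had at most 0.0918 RPM, below the level of 3 reads. The markers of the labelled tissue were present, with neurogranin (Nrgn) and Camk2a, both typical of forebrain excitatory neurons, above 1000 RPM in each library.

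Most of the signal came from few genes. Of the 23361 names, 74 had a mean of 1000 RPM or more, 1419 lay between 100 and 1000 RPM, 6066 between 10 and 100 RPM, 4915 between 1 and 10 RPM and 4429 above 0 but under 1 RPM. No read was found in any library for 6458 names, of which 1729 were names of microRNAs, whose mature forms carry no poly(A) tail. The 74 genes of the top class held 18.8% of the RPM of the rows kept and the 1419 of the next class 47.4%, whereas the 4429 genes of the lowest class held 0.176%. Of that RPM, 50% was reached with 663 genes and 90% with 4727 genes. The shape was nearly the same in the 3 animals.

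**Figure D1:**
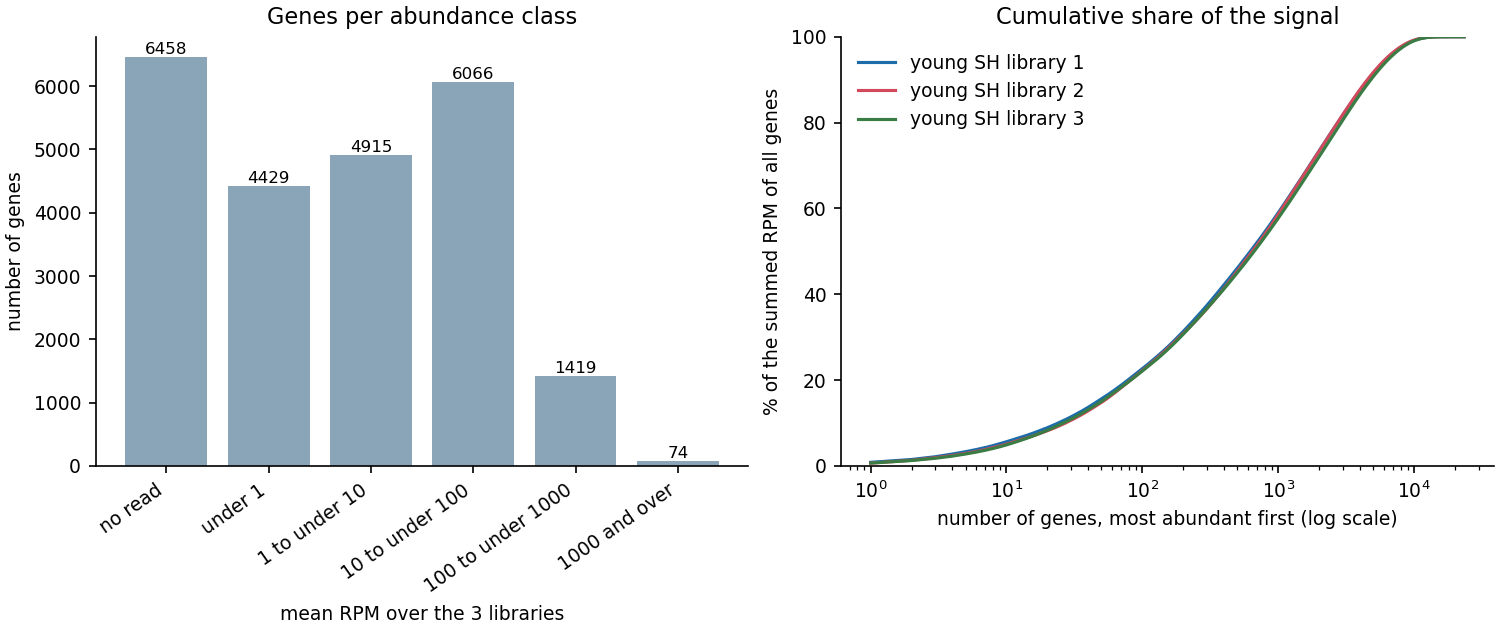
Left, number of genes in each class of mean RPM over the 3 libraries; right, percentage of the summed RPM of all genes (y) against the number of genes counted from the most abundant down (x, log scale), 1 line per library. The 74 genes at or above 1000 RPM form the smallest class, and the 3 lines nearly coincide.

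The 10 most abundant genes of each library took 4.00% of the column total in library 1 (95% Wilson interval 3.99% to 4.02%), 3.63% in library 2 (3.62% to 3.64%) and 3.48% in library 3 (3.47% to 3.49%). The intervals did not overlap. They cover counting error only and treat reads as independent, although reads carried no molecular identifiers and those shared by several rows counted more than once. The 100 most abundant took 16.1%, 15.9% and 15.7%. Hspa8 and LOC624853, which overlap on chromosome 9, were both among the 10 in every library. Their signal thus entered these shares under both names. A read was found for 15935, 15779 and 15823 genes in libraries 1, 2 and 3, and for 14829 genes in all 3 of them. A further 2074 genes had a read in only 1 or 2 of the libraries. The median of the mean RPM was 7.30 over genes with a read and 1.57 over all names.

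The most abundant transcript was Fth1, the heavy chain of the iron store ferritin, with 6034, 4409 and 3186 RPM in libraries 1, 2 and 3 (4543 ± 1429, SD, n = 3). It led in library 1 only. The constitutive chaperone Hspa8, which uncoats clathrin vesicles among other tasks, followed with 4559, 4702 and 3739 RPM (4333 ± 520). The name LOC624853 came next with 4485, 4650 and 3534 RPM. It lies at chr9:40612686-40613283 on the plus strand, a stretch that holds the expected Hspa8 tag. The 2 names are therefore read as 1 signal and not as 2 genes. Eef1a1, which brings aminoacyl-tRNA to the ribosome, was at 3379, 3443 and 4251 RPM (3691 ± 486) and was highest in library 3.

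Synaptic genes stood among the first 10. Snap25, a SNARE protein of vesicle fusion at the presynaptic membrane, had 3254, 3658 and 3472 RPM (3461 ± 202), a coefficient of variation (CV, the SD over the mean) of 5.84%. Nrgn, which binds calmodulin at low calcium in dendrites, had 2865, 3263 and 2956 RPM (3028 ± 208). Both CVs lay below 12.5%, the median of genes at or above 1000 RPM. Olfm1, a secreted glycoprotein of neurons, was at 3848, 2851 and 3074 RPM (3258 ± 523), highest in library 1. Carboxypeptidase E (Cpe), which trims neuropeptide precursors, was at 2690, 3295 and 2362 RPM (2782 ± 473), highest in library 2.

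Genes of energy supply and of glia filled much of the rest. Cox4i1, a nuclear-encoded subunit of cytochrome c oxidase, had 3017, 3112 and 2894 RPM (3008 ± 109), with a CV of 3.63%. Slc1a2, the main glutamate transporter of astrocytes, had 2224, 2364 and 2129 RPM (2239 ± 118), and Sparcl1, a matrix protein secreted by astrocytes, had 2330, 2874 and 2685 RPM (2630 ± 276). The 3 values lay close together for these genes. Mbp, myelin basic protein, had 3536, 683 and 2938 RPM (2386 ± 1505): library 2 was far below the others. Hippocalcin (Hpca), a calcium sensor of hippocampal pyramidal cells, showed the same order with 3239, 1516 and 2878 RPM (2544 ± 909).

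**Figure D2:**
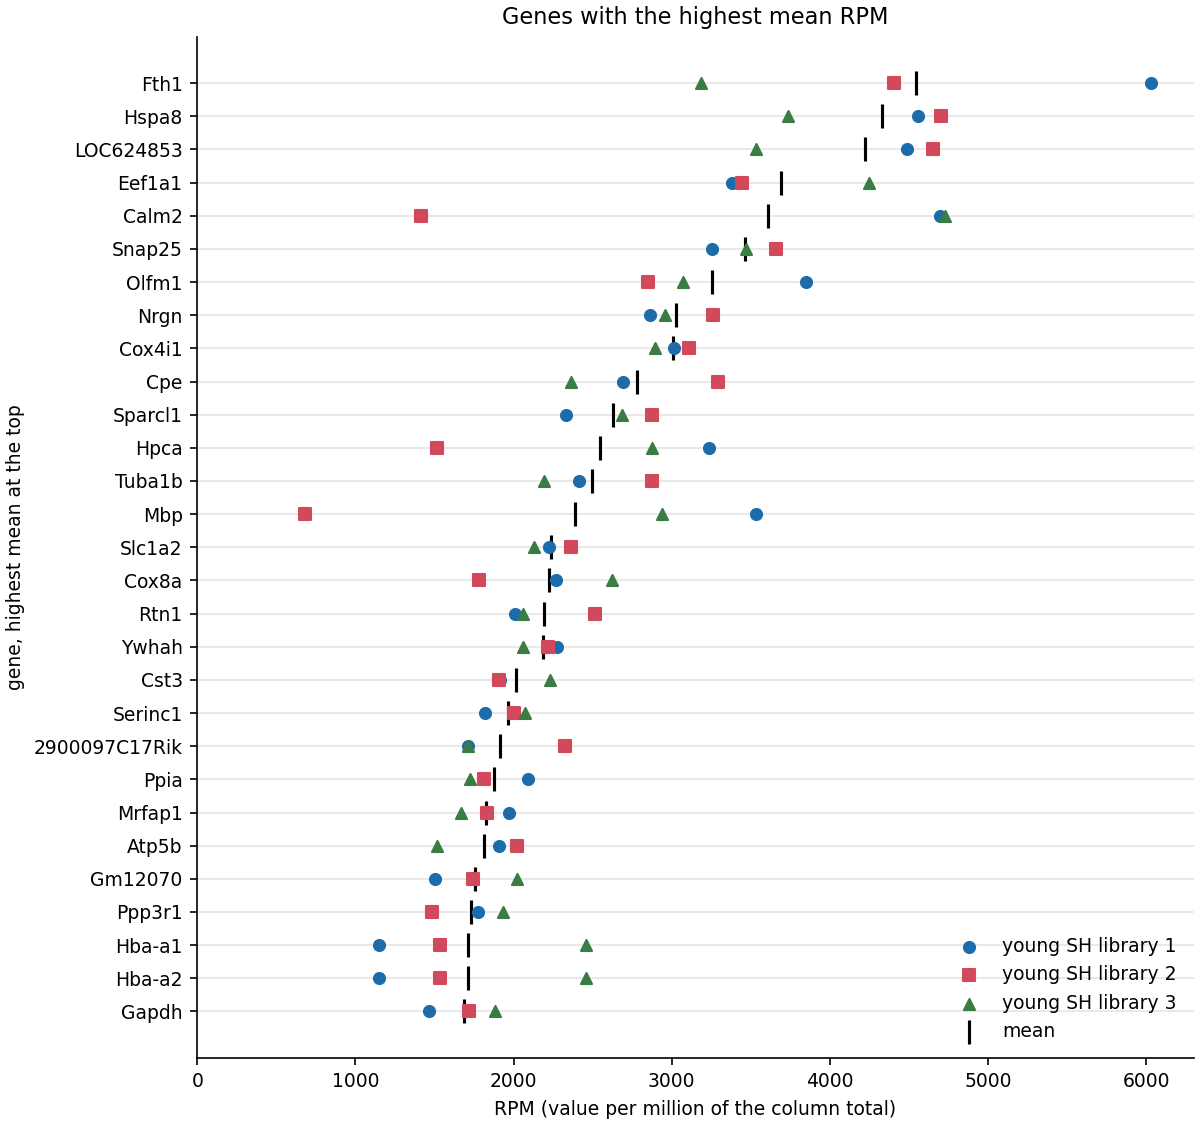
RPM (x) of 29 of the 30 genes with the highest mean RPM, from Fth1 at 4543 RPM at the top to Gapdh at 1688 RPM at the bottom (y); circles, squares and triangles are young SH libraries 1, 2 and 3 and the black bar is their mean. For most genes the 3 symbols lie close together, while the square of library 2 falls far to the left for Calm2, Hpca and Mbp.

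The order among these genes was not fixed. Of the 29 pairs of neighbours in the ranking of the top 30, 1 pair stood in the same order in all 3 libraries. Membership was steadier than order: 6 genes were among the 10 most abundant in all 3 libraries, 19 among the 30, 78 among the 100 and 781 among the 1000. The 6 included both Hspa8 and LOC624853. Without library 3, 26 of the 30 genes stayed in the top 30, and without library 1 or library 2, 29 did. The pair that kept its order was Hspa8 and LOC624853, which are read above as 1 signal.

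Calm2 and Calm3 are known to encode 1 and the same protein, calmodulin. Calm2 was at 4694, 1414 and 4727 RPM (3612 ± 1904), far lower in library 2 than in the others. Calm3 was at 566, 289 and 506 RPM (453 ± 146), again lowest in library 2. Without library 2 the mean of Calm2 was 4711 RPM, against 3612 with it, and that of Calm3 was 536 RPM.

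Of 19 genes of calcium and CaMKII signalling, 19 had a mean of at least 10 RPM and 15 of at least 100 RPM. Of all 23361 names, 32.4% reached 10 RPM and 1493 reached 100 RPM, values that belong beside the list counts below as well. The names include 1808 of microRNAs, of which 4 reached 10 RPM. Nrgn, Hpca, Ppp3r1 and Camk2a were the 4 highest. Ppp3r1, the regulatory subunit of calcineurin, was at 1776, 1486 and 1936 RPM (1732 ± 228). Camk2a, the alpha subunit of CaMKII, was at 1732, 1212 and 1642 RPM (1529 ± 278). Library 2 was the lowest for both, as it was for 11 of the 19 genes, against 31.7% of all genes at or above 10 RPM.

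Genes of vesicle release followed. Of 20 listed, 19 reached 10 RPM, against 32.4% of all names, and 14 reached 100 RPM. Their summed level was 9982, 10696 and 9487 RPM, a range of 1.13-fold. Complexin 2 (Cplx2), a clamp on the SNARE complex, was at 1698, 1066 and 1307 RPM (1357 ± 319). Synapsin 2 (Syn2) and synaptophysin (Syp), both proteins of the vesicle membrane, were at 729, 1000.2 and 637 RPM and at 744, 839 and 570 RPM. These were highest in library 2. Slc17a7, the vesicular glutamate transporter of pyramidal cells, was at 427, 448 and 82.4 RPM (319 ± 205), so that library 3 alone was low.

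Receptors were less abundant than the release machinery. Of 19 genes of glutamate and GABA receptors, 15 reached 10 RPM, against 32.4% of all names, 8 reached 100 RPM and none reached 1000 RPM. The highest was Gria2, the AMPA receptor subunit that limits calcium entry, with 801, 929 and 812 RPM (847 ± 71.0). The metabotropic receptor Grm5 was at 297, 313 and 289 RPM (299.8 ± 11.9), and the GABA-B subunit Gabbr1 at 253, 290.5 and 244 RPM (263 ± 24.7). Gabra5, the alpha 5 subunit of GABA-A receptors that is typical of the hippocampus, was at 260.2, 269 and 227 RPM (252 ± 22.0). Each of the 4 lay within a CV of 10%.

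Phosphatases PP1 and PP2A and their regulators were measured with 17 genes. Of these, 16 reached 10 RPM, against 32.4% of all names, and 11 reached 100 RPM, against 1493 of all 23361 names. Ppp1r9b, spinophilin, which anchors PP1 in dendritic spines, was the highest with 926, 847 and 673 RPM (815 ± 129). The catalytic subunits Ppp2cb of PP2A and Ppp1cc of PP1 had 353, 373 and 296 RPM and 339, 233 and 277 RPM. Ppp2r2c, a neuronal regulatory subunit of PP2A, had 277, 256 and 304 RPM. The sum of the list was 3238, 2923 and 2898 RPM, within 1.12-fold.

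The 83 genes of cytosolic ribosomal proteins gave 29043, 27517 and 28711 RPM (28424 ± 802), and the median CV of their single genes was 15.9%. The 87 genes of the respiratory chain and ATP synthase gave 24270, 23601 and 22397 RPM (23423 ± 949), with a median single-gene CV of 17.7%. The 16 genes of glycolysis gave 9025, 9927 and 9930 RPM (9627 ± 522). In the ribosomal list 65 of 83 genes reached 10 RPM and in the respiratory list 76 of 87, while all 16 glycolytic genes did. Among all names 32.4% did.

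Among glycolytic enzymes, Gapdh was the highest with 1466, 1716 and 1881 RPM (1688 ± 209), to which Gm5069, with the identical tag, stood close at 1377, 1621 and 1692 RPM, so that their reads cannot be assigned to one or the other. Gm12070, another name of the top 30, was at 1502, 1741 and 2024 RPM. Aldolase A (Aldoa) had 1162, 1276 and 1416 RPM (1284 ± 127). Pgk1, which makes ATP in glycolysis, was the steadiest, with 999, 992 and 961 RPM (984 ± 19.96) and a CV of 2.03%. Phosphoglycerate mutase (Pgam1) was at 780, 1061 and 850 RPM.

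Chaperones, 14-3-3 adaptor proteins, ion pumps and ubiquitin genes were also prominent. Of 16 chaperones, 16 reached 10 RPM, against 32.4% of all names. Hsp90ab1, the constitutive HSP90, had 2018, 229 and 1325 RPM (1191 ± 902), whereas its partner gene Hsp90aa1 had 802, 944 and 1008 RPM (918 ± 105). Library 2 was thus low for one HSP90 gene and not for the other. Ywhah was the highest of 7 genes of 14-3-3 proteins, with 2273, 2218 and 2062 RPM (2184 ± 110), and the epithelial member Sfn was the lowest of them at a mean of 3.57 RPM. Atp2a2, the calcium pump of the endoplasmic reticulum, led the 11 pumps with 1075, 1288 and 927 RPM (1097 ± 181).

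Immediate-early genes, which neurons switch on after activity, were present at moderate levels. Of 19, 13 reached 10 RPM, against 32.4% of all names, and 2 reached 100 RPM. Egr1 was at 153, 169 and 150.2 RPM (157 ± 10.2), and Homer1 at 112, 100.4 and 142 RPM (118 ± 21.3). The Homer1 value is that of 1 of its 3 transcript rows, and whether this row is a form induced by activity was not tested. Jun was at 88.7, 113 and 85.3 RPM and Arc, which acts in AMPA receptor uptake, at 68.2, 55.2 and 57.0 RPM. The list summed to 622, 678 and 660 RPM, so that the 3 mice were near each other in this respect. Among the 13 neuropeptides listed the highest was Cck, cholecystokinin, with 457, 377 and 497 RPM (443 ± 61.2), against 26.8, 28.8 and 47.3 RPM for Npy. Somatostatin (Sst), on the same list, has no CATG site in its transcript and could not be ranked.

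Markers of cell types were summed by list. Astrocytes (14 genes) came to 6516, 5906 and 6709 RPM, and pyramidal and granule cells (7 genes) to 5295, 5174 and 5033 RPM. These sums do not rank cell numbers, because the lists differ in length and their genes in level per cell. Interneurons (13 genes) came to 869, 824 and 966 RPM, of which Cck alone gave 457, 377 and 497 RPM. Microglia (13 genes) came to 690, 514 and 659 RPM and endothelial cells (10 genes) to 320.5, 350 and 373 RPM. Oligodendrocytes (12 genes) came to 5048, 1344 and 4664 RPM, the widest range of the large lists at 3.76-fold. Genes of other organs, such as liver and kidney, had a median of 0.193 RPM, and 1 of the 10 exceeded 10 RPM, the muscle actin Acta1 with 64.2, 36.4 and 104 RPM.

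**Figure D3:**
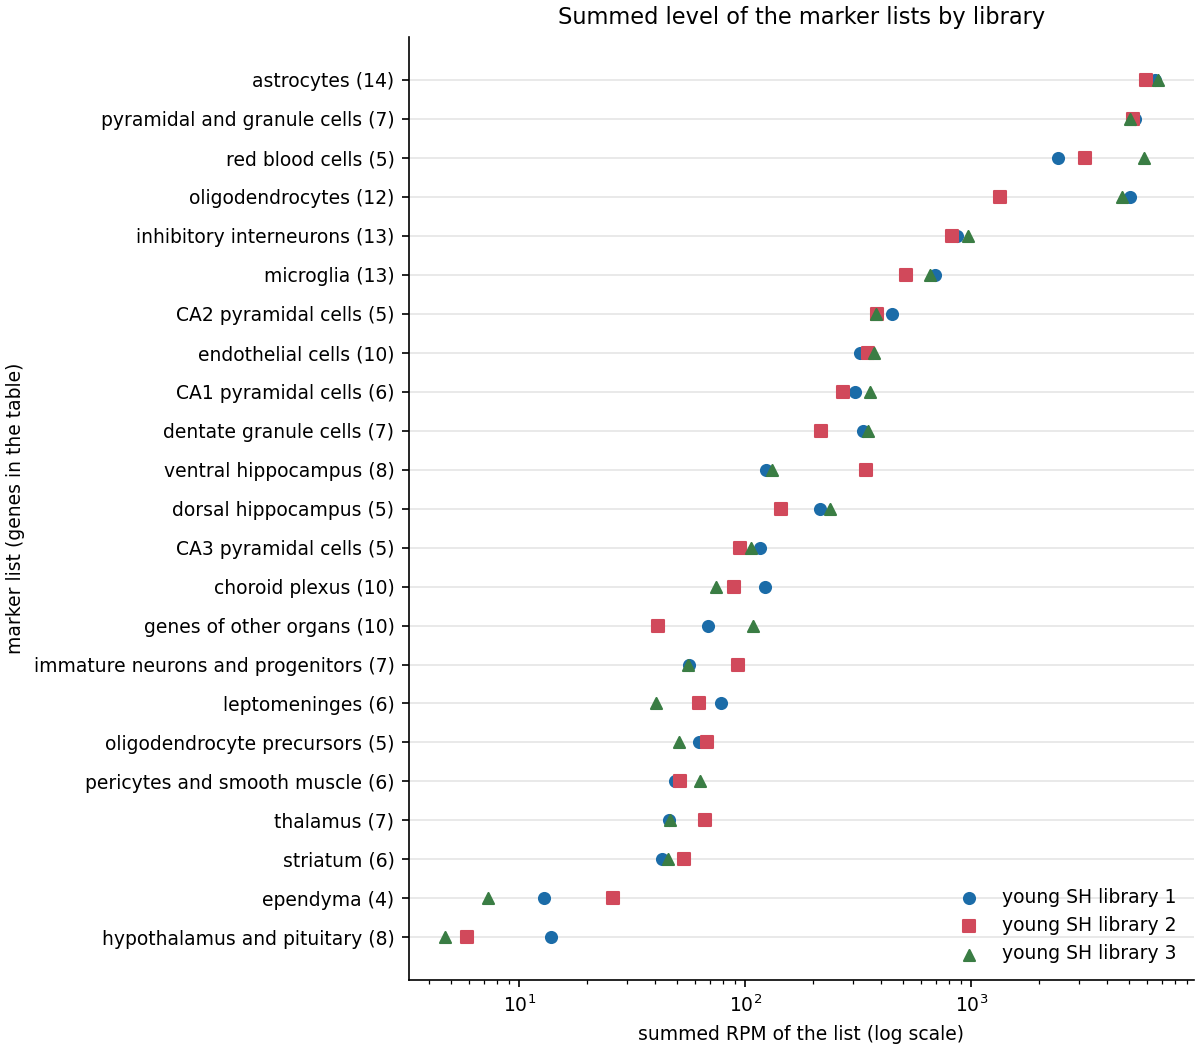
Summed RPM (x, log scale) of each marker list, with the number of its genes in the table in brackets (y); circles, squares and triangles are young SH libraries 1, 2 and 3. Library 2 lies left of the others for oligodendrocytes (1344 RPM), dentate granule cells (217 RPM) and the dorsal hippocampus (144 RPM) and right of them for the ventral hippocampus (343 RPM), and library 3 lies right for red blood cells (5806 RPM).

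In the oligodendrocyte list the low level of library 2 was shared by all members: 12 of 12 were lowest there, against 31.7% of all genes at or above 10 RPM. Besides Mbp, the tight junction gene Cldn11 was at 319.9, 177 and 276 RPM. Mag, an adhesion protein of the inner myelin layer, was at 146, 62.5 and 138 RPM. The summed level of 5 genes of the precursors of these cells was not lowest in library 2, with 62.2, 67.8 and 50.8 RPM. Of these genes 2 were lowest there, and 3 had a mean under 10 RPM. Without library 2 the oligodendrocyte list had a mean sum of 4856 RPM, against 3685 RPM with it.

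The same library differed in regional markers. Lefty1 and Lct, which mark the dorsal hippocampus, were at 73.0, 7.62 and 70.9 RPM and at 40.3, 3.74 and 35.1 RPM. The granule cell markers Dsp, a desmosome protein, and C1ql2, a synaptic organiser of mossy fibres, were at 35.8, 3.21 and 27.5 RPM and at 74.5, 25.3 and 79.1 RPM. In each of these library 2 was lowest by a wide margin. Calb1, which is shared with other neurons, was not, with 120.4, 132 and 94.2 RPM, nor was the dorsal gene Nov, with 20.4, 69.5 and 32.8 RPM.

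Markers of the ventral hippocampus ran the other way, with 123, 343 and 131 RPM in sum. Dcn, the matrix proteoglycan decorin, was at 14.95, 115 and 6.70 RPM, and Nr2f2, a nuclear receptor, at 18.1, 106 and 15.3 RPM. The oxytocin receptor Oxtr was at 8.30, 18.2 and 8.45 RPM. Library 2 was highest in 6 of the 8 genes, against 41.1% of all genes at or above 10 RPM, and Nr2f1 was at 71.6, 75.5 and 94.0 RPM. Of the 8 genes 4 had a mean under 10 RPM. The part of these regional markers in the other values of library 2 was not tested.

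Red cell genes separated library 3. The alpha-globin names Hba-a1 and Hba-a2 held identical reads and were each at 1148, 1534 and 2456 RPM (1713 ± 672), and the beta-globin names Hbb-b1 and Hbb-b2, also with identical reads, were each at 62.2, 58.8 and 437 RPM (186 ± 218). The 5 genes of the list, in which each of these pairs is counted for both names, were all highest in library 3, against 35% of all genes at or above 10 RPM, and with shared reads counted once they are 3 signals. Of 10 endothelial genes 7 were highest in the same library, against the same 35%, but 6 of the 10 had a mean under 10 RPM. Among the 7 was the tight junction gene Cldn5 with 11.6, 12.6 and 31.1 RPM. The part of blood and vessels in other values of library 3 was not tested. The 2 most abundant endothelial genes were nearer to each other across libraries: Ly6c1 was at 164, 163 and 159 RPM (162 ± 2.80) and Itm2a at 105, 134 and 122 RPM.

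In astrocytes Apoe, a lipid carrier, was at 1496, 1278 and 1328 RPM (1367 ± 114) and glutamine synthetase (Glul) at 610.3, 592 and 639 RPM (614 ± 24.0). Clusterin (Clu), a secreted chaperone, was the exception with 800.1, 85.7 and 1151 RPM (679 ± 543). Among the 4 highest astrocyte genes library 2 was far below the others for Clu alone. In microglia the lysosomal protease gene Ctss was at 101.6, 57.8 and 87.3 RPM (82.2 ± 22.4). In library 2, 12 of 13 genes of this list were lowest, against 31.7% of all genes at or above 10 RPM. Of the 13 genes 4 had a mean under 10 RPM.

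Genes of tissues that border the hippocampus were also met. In sum, the choroid plexus list (10 genes) held 122, 89.1 and 74.1 RPM. The leptomeninges list (6 genes) held 78.3, 62.3 and 40.3 RPM, and the thalamus list (7 genes) 46.2, 66.7 and 46.3 RPM. The choroid plexus list had a median of 0.476 RPM, and transthyretin (Ttr), its most typical secreted product, had 0.391, 0.299 and 0.551 RPM. Enpp2, the highest gene of this list, was at 102, 75.5 and 55.3 RPM, and oligodendrocytes are known to express it too. It was lowest in library 3, whereas all 12 oligodendrocyte genes were lowest in library 2, and its source was not tested. Of 8 genes of the hypothalamus and pituitary none reached 10 RPM, and growth hormone (Gh) was found in library 1 alone, at 6.26 RPM. Of the 7 thalamic genes Prkcd had 21.7, 8.14 and 21.5 RPM and Calb2, which interneurons and mossy cells also express, 6.11, 38.2 and 3.76 RPM.

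Some genes that the tissue is known to express had no read, and their tag sites were looked up. Somatostatin (Sst), the peptide of a large class of interneurons, had 0 reads in the 3 libraries, and its transcript of 599 bases holds 0 CATG sites. Parvalbumin (Pvalb), the calcium buffer of fast-spiking interneurons, also had 0 reads, although its transcript holds 1 CATG, 211 bases from the 3′ end. With 0 reads, a level of up to 0.224 to 0.275 RPM is allowed by counting. The enzyme of GABA synthesis Gad1 was at 250.5, 211 and 279 RPM (247 ± 33.7). The vesicular GABA transporter Slc32a1 was at 57.2, 78.8 and 50.4 RPM. Of the 13 interneuron genes 8 reached 10 RPM, against 32.4% of all names, and 10 had a read in all 3 libraries. Dlx2 had a mean of 0.0747 RPM.

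Over all genes the level went with the tag site. Of 18292 genes matched to a GENCODE transcript, 111 had no usable CATG, and 95 of these (85.6%) had no read, whereas 3721 of 18181 genes with a site (20.5%) had none. Of the sites, 74.3% lay in a 3′ UTR, at a median of 170 bases from the 3′ end. The share of genes at or above 100 RPM was 10.5% where the site lay within 100 bases of the end, 7.34% from there to 250 bases, 4.96% from there to 500 bases, 3.37% from there to 1000 bases and 0.930% beyond. In the same order the medians were 4.08, 3.42, 3.62, 2.22 and 1.40 RPM, which did not fall at each step. Ribosomal protein genes without a read, chosen after their values were seen, were Rps21, with 0 CATG sites, Rps13, Rpl39 and Rpl10l. Rps13 holds 2 CATG sites and Rpl10l 8, with the usable one at 491 and 159 bases from the 3′ end. The expected tag of Rps13 lies at chr7:123477451-123477613 and crosses an exon border. Why these 2 genes had no read was not tested. In Rpl39 the CATG nearest to the 3′ end lies in the 5′ UTR.

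Each animal had its own library, so the spread between them holds differences between animals and between library preparations, which cannot be told apart. Over the 7559 genes with a mean of at least 10 RPM the median CV was 16.9%, with 10% of genes below 5.80% and 10% above 43.4%, while reads counted at random would give a median of 4.68%. A CV no larger than that of counting was found for 504 genes (6.67%). The highest library was within 1.5-fold of the lowest for 4695 genes (62.1%), at least 2-fold above it for 1193 (15.8%) and at least 5-fold for 163. The median CV was 12.5% in genes at or above 1000 RPM, 15.1% at 100 to 1000 RPM, 17.6% at 10 to 100 RPM, 28.3% at 1 to 10 RPM and 86.7% below, where counting alone gives 70.7%. With 3 animals a CV of one gene is itself imprecise.

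**Figure D4:**
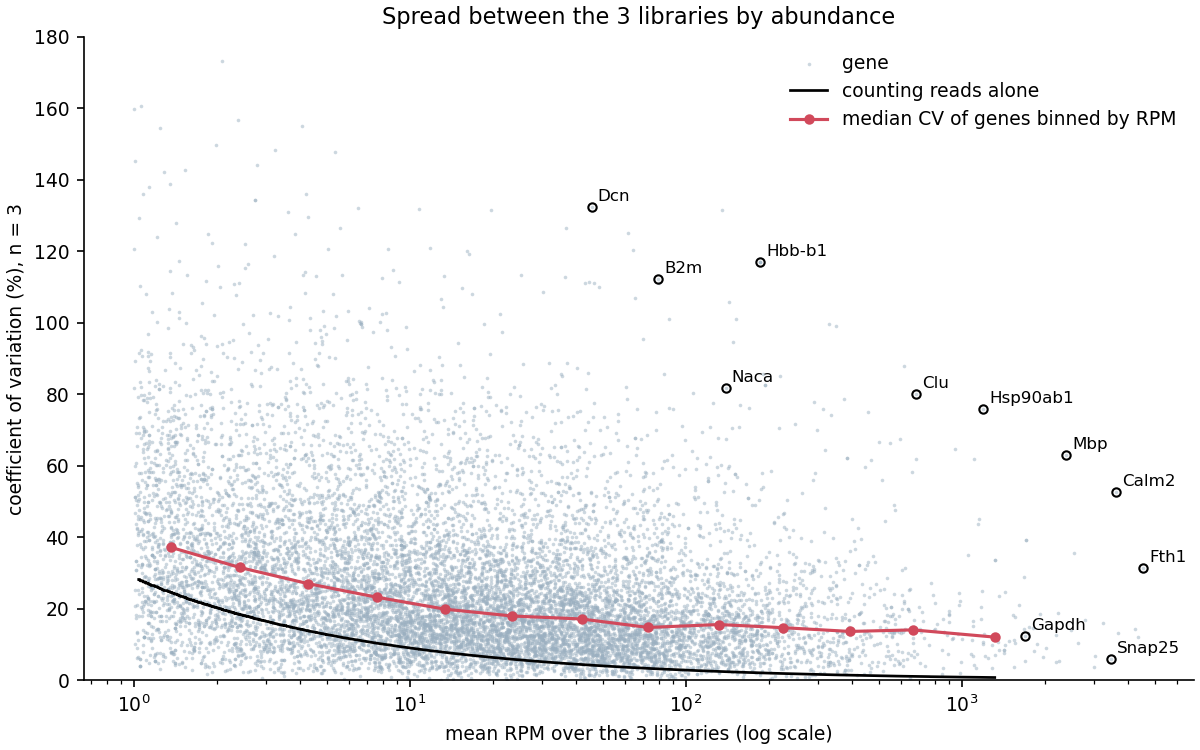
Coefficient of variation over the 3 libraries in percent (y) against mean RPM (x, log scale) for genes at or above 1 RPM; the red line joins medians of genes binned by RPM and the black line is the value from counting reads alone. The red line stays above the black one at every level, with named genes such as Mbp and Dcn far above it and Snap25 (5.84%) below.

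The libraries were compared in pairs. Between libraries 1 and 3 the median absolute difference of log2(RPM + 1) was 0.24 and 431 genes differed at least 2-fold, between libraries 1 and 2 it was 0.24 with 619 genes, and between libraries 2 and 3 it was 0.34 with 892 genes. Pearson correlations of log2(RPM + 1) across the 7559 genes were 0.943, 0.920 and 0.897 in that order, and they are descriptions, since genes are not independent. Library 2 was at least 2-fold below both others for 322 genes, against 99 for library 1 and 85 for library 3. Above both others by that factor were 141 genes in library 3, 84 in library 2 and 18 in library 1. Without library 1, 2 or 3 the median CV over the 2 libraries left was 17.2%, 12.3% or 12.2%. At the same true spread the median CV over 2 values tends to lie below that over 3. These values are thus not comparable with the 16.9% of all 3 libraries. Without library 2 the count of genes that differed at least 2-fold was 438, without library 3 it was 597 and without library 1 it was 902, from 1193 with all. A ratio over 2 libraries can be no larger than that over 3.

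The genes with the largest departures of 1 library from the others were picked by that ratio, so their values are a description. Rpl5, a protein of the large ribosomal subunit, had 63.4, 688 and 624 RPM, and Ids, a lysosomal sulfatase, had 79.5, 1163 and 605 RPM. Stub1, a ubiquitin ligase that works with chaperones, had 18.2, 239 and 212 RPM. Library 1 was low for these genes by at least 5-fold, and 14 genes in all were so. In the opposite direction B2m, the light chain of MHC class I, had 181, 20.2 and 35.9 RPM, and Cmas, an enzyme that activates sialic acid, had 98.1, 16.0 and 14.8 RPM.

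In library 2, 55 genes were at least 5-fold below both others. Naca, a subunit of the complex that shields nascent chains on the ribosome, had 215, 8.52 and 194 RPM. Dgat2, an enzyme of triglyceride synthesis, had 173, 9.94 and 136 RPM and the ubiquitin-conjugating enzyme gene Ube2g2 had 50.3, 1.57 and 48.5 RPM. For these genes libraries 1 and 3 were near each other. Ost4, a small subunit of oligosaccharyltransferase, had 3 reads in library 2, with 48.8, 0.224 and 9.73 RPM, and spread over all 3 libraries. Highest in library 2 were Tom1l2, an adaptor of endosomal sorting, with 23.6, 341 and 42.0 RPM, Polr2l, a small subunit of RNA polymerase II, with 7.05, 90.4 and 12.9 RPM, and the syntaxin Stx5a with 11.8, 83.8 and 13.6 RPM.

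Library 3 was at least 5-fold below both others for 10 genes. Ndufs5, an accessory subunit of respiratory complex I, had 271, 301 and 10.01 RPM, with the same reads listed under BC002163. Nfu1, which helps to build iron-sulfur clusters, had 71.6, 103 and 8.54 RPM, and annexin A2 (Anxa2) had 32.7, 23.2 and 1.29 RPM. These 3 genes were low in library 3 alone. Vegfb, a growth factor of the VEGF family, was at 28.7, 6.58 and 150 RPM and Cul1, a scaffold of ubiquitin ligases, at 4.85, 12.9 and 57.9 RPM, both highest in library 3.

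**Figure D5:**
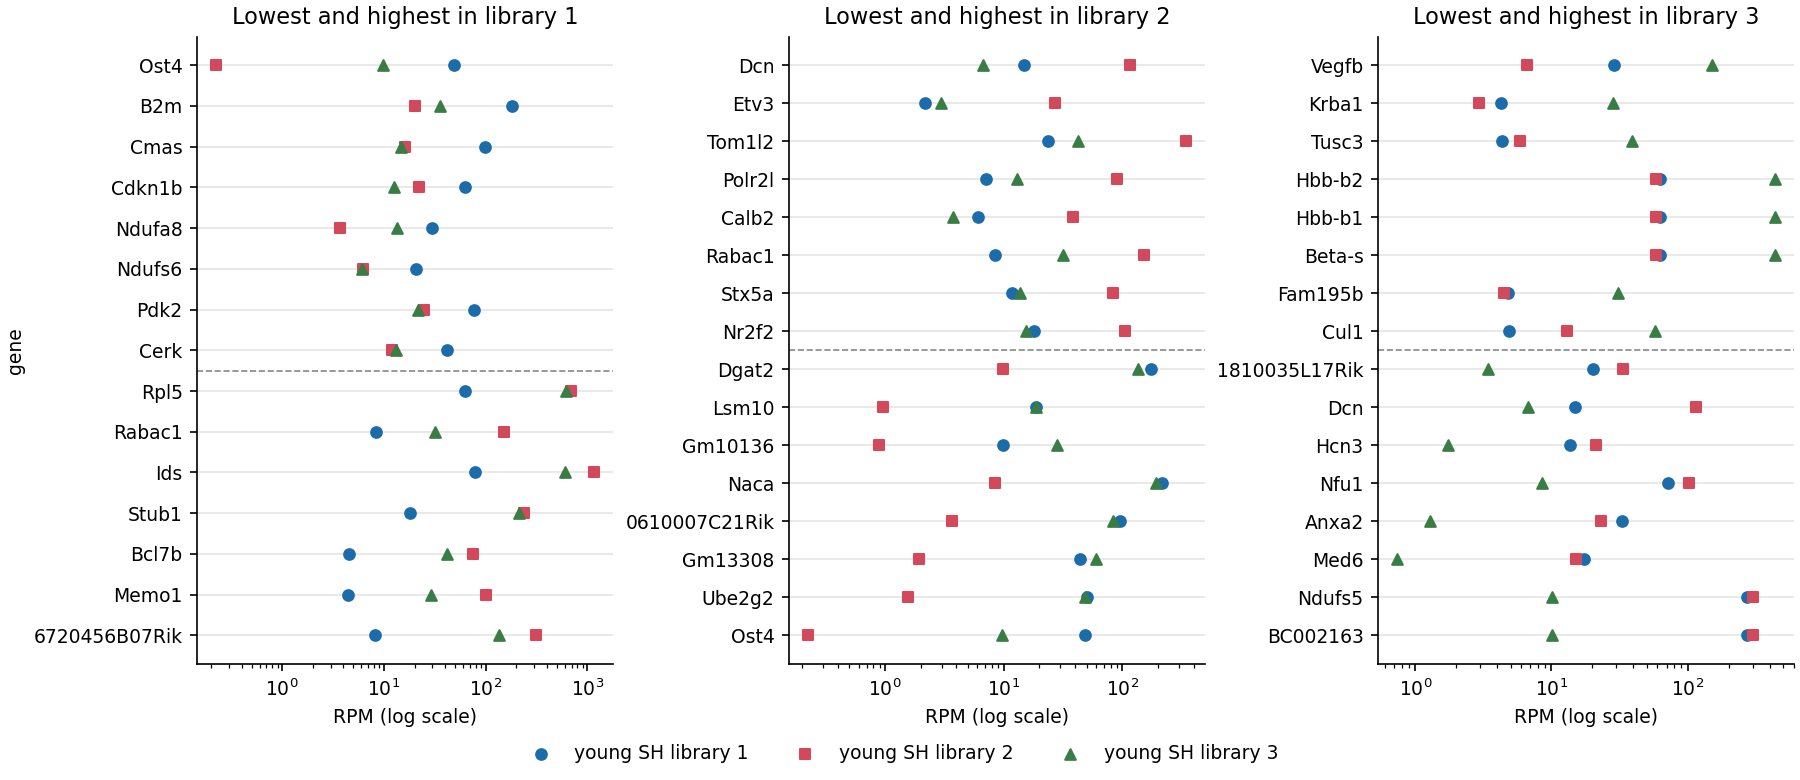
RPM (x, log scale) of the 8 genes with the highest ratio of one library to the mean of the others (above the dashed line) and the 8 with the lowest (below it), leaving out 1 gene not reported here, for libraries 1, 2 and 3 from left to right; circles, squares and triangles are libraries 1, 2 and 3. Rpl5 at 63.4 RPM in library 1, Naca at 8.52 RPM in library 2 and Ndufs5 at 10.01 RPM in library 3 lie far from the other symbols on their lines.

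At the other end stood genes that hardly varied. Tmem66, a regulator of store-operated calcium entry, had 202, 202 and 203 RPM (CV 0.268%), and Tagln3, a neuronal calponin-like protein, had 250.5, 252 and 254 RPM (CV 0.616%). Spag9, a scaffold of JNK signalling, and Vps41, a part of the lysosomal HOPS complex, had CVs of 0.768% and 0.856%. Ankrd46, Etnk1, Edil3, Fabp5, Pomp and Sec62 completed the 10 genes with the lowest CV at or above 100 RPM, with CVs of up to 1.35%. Such values lie below the spread that counting gives, 2.18% at the median for genes between 100 and 1000 RPM, and with 3 libraries among many genes some values this close occur, so they do not rank these genes as the most stable.

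Genes often used as references in quantitative PCR covered a wide range. Ppia, cyclophilin A, was the highest with 2091, 1813 and 1728 RPM (1877 ± 190), and Ywhaz was at 1138, 1305 and 1201 RPM (1214 ± 84.2). Beta-actin (Actb) was at 768, 695 and 915 RPM (793 ± 112), a CV of 14.2%, and Pgk1 had the lowest CV of the 15. B2m had a CV of 112%, the highest of the 15. Hprt was at 285, 183 and 233 RPM and Sdha at 99.2, 124 and 114 RPM. Tfrc, Tbp and Rplp0 had means of 50.6, 37.7 and 72.1 RPM, while Polr2a and Gusb had 2.66 and 1.54 RPM.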

How the data were processed

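Expression was measured by SAGE-Seq (SOLiD) in the hippocampus, with 3 young SH libraries of the 12 of the study used here. Per the study's methods, tags were mapped to mouse assembly NCBI37 (mm9) with 1 mismatch allowed, counted over transcripts and compared with edgeR; the rows carry RefSeq accessions. The deposited values, a signal, had been scaled per library by the authors and cut to 4 significant digits. All values below 1000 (100%) were whole multiples of 1 step per library (0.971, 0.952 and 0.940) within 0.1 read, and dividing by the step gave back whole reads. Columns with the authors' fold changes, p-values and FDR, and 9 columns of other libraries, were not used.

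Each value was divided by its column total and multiplied by 1000000 (RPM). One row per gene name was kept, that with the highest summed signal. Mean, SD and CV were taken over the 3 libraries, no test was run, and the CV of counting was computed from the recovered reads. Shares carry 95% Wilson intervals, and 3 counts set the floor. These intervals and floors cover counting error only. Tags were predicted from GENCODE transcripts whose 3′ end lay within 200 bases of that of the RefSeq row. Step finding and CV were tested on simulated data. Python 3.11.15, numpy 2.4.6, pandas 2.3.3, scipy 1.17.1 and matplotlib 3.10.9 were used.

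Named genes were the 30 with the highest mean RPM, up to 4 of the highest in each list and markers with no read, the 15 with the highest CV and, per library, the 8 highest and 8 lowest against the mean of the other libraries (means of at least 10 RPM), the 10 lowest CVs at or above 100 RPM, and calmodulin and PCR reference genes. Some genes that the rule names are not reported here. The genes and lists were chosen with earlier results of these data known. Alternatives were each library left out, the sum over rows of a gene, every row on its own, totals over the rows kept, the deposited library factors, median-of-ratios factors, minimum means of 1 and 100 RPM or none, counting variance taken off, a detection limit of 3 reads and thinning to the smallest total.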

Additional observations from a re-analysis of the deposited data

How the results depend on the processing

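No paired analysis was possible because 1 group was described and no test was run. Summing all rows of a gene name gave 132 genes at or above 1000 RPM and every row on its own gave 112, against 74, and the sum kept 18 of the 30 most abundant genes. The median CV of 16.9% became 21.2% with the deposited library factors, 20.6% with a minimum of 1 RPM and 27.0% with none. Genes that differed at least 2-fold, 1193, became 3055 with a minimum of 1 RPM, 157 with 100 RPM and 6755 with none. Leaving out 1 library gave median CVs of 12.2% to 17.2% and 438 to 902 such genes. Without library 2 the summed ventral list fell from 199 to 127 RPM and the ependymal list from 15.4 to 10.05 RPM, and without library 1 the hypothalamic and pituitary list fell from 8.12 to 5.29 RPM. Median-of-ratios factors moved the sums of the 40 lists by less than 1 SD. Reading depth limits genes under 1 RPM, where counting alone gives a median CV of 70.7%.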

Other observations

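Tubb3, a tubulin of neurons, had 64.2, 317 and 47.2 RPM, and Eno2, the neuronal enolase, had 644, 281 and 1049 RPM, so that library 2 was highest for one and lowest for the other. Neurod6, a transcription factor of pyramidal cells, had 60.0, 24.1 and 112 RPM. Gfap, the filament protein of astrocytes, was at 31.3, 19.5 and 56.7 RPM, far below Slc1a2. These genes were chosen after their values were seen.

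Of the 7559 genes at or above 10 RPM, 70 had reads identical in each library to those of another name, among them Rps23 with Gm15450 and Rpl30 with Gm12191, and their levels belong to all names that share them and not to 1 gene.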
